A study of Mus musculus with 2 samples.

Results

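The hepatocyte barcodes described here were those of the control library in which the transcripts of Tox, Tenm3, Ngef and Wipf3 were counted most often. They were chosen by a rule on raw counts of unique molecular identifiers (UMIs, 1 per captured transcript). A barcode was taken when it held at least 1000 UMIs in all, at least 3 UMIs summed over Tox, Tenm3, Ngef and Wipf3, at most 1 over Ncam2, Sult5a1, Sds and Cryl1, and at most 1 over the stellate and Kupffer cell genes Reln, Dcn, Clec4f, Cd5l and C1qa. The rule took 444 barcodes. They made up 31.5% of the 1411 control barcodes of at least 1000 UMIs that met both limits (exact binomial 95% interval 29.0 to 34.0%). The library listed 166037 barcodes and the series 341974. Of 471 barcodes with at least 3 UMIs of the first 4 genes, 15 exceeded the limit on the second list and 14 the limit on the third. They were compared with 419 barcodes of the same library that met the same limits and held 0 UMIs of the 4 genes.

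The series holds 2 liver libraries, each from 1 mouse, prepared with a droplet kit that reads transcripts from the 5′ end. The labels name both single-cell and single-nucleus preparation. Every animal carried floxed Glul (Glul f/f, the gene of glutamine synthetase) and received virus at 11 weeks of age. The control mouse received AAV8-GFP and the other, the GS_KO mouse, AAV8-Cre, and livers were digested with collagenase 2 weeks later. AAV8 is a hepatotropic viral vector. The sources used here do not give the promoter that drives Cre, and hepatocytes were loaded together with purified non-parenchymal cells. With 1 library and 1 mouse behind the members, no test between animals was possible. Intervals below are exact 95% intervals that cover counting error only, and no p-value is given.

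Tox encodes a nuclear protein with an HMG box that binds DNA, known from T cell development and, in mouse liver, as a female-predominant factor that responds to growth hormone. Tenm3 encodes a teneurin, a transmembrane adhesion protein that pairs with latrophilins on neighbouring cells. Ngef encodes ephexin-1, a guanine nucleotide exchange factor that acts downstream of EphA receptors, and Wipf3 encodes a member of the WIP family, which binds N-WASP and actin. Hepatocytes differ along the liver lobule. Cells beside the central vein make glutamine from ammonia and depend on Wnt signals, whereas periportal cells carry out most urea synthesis and amino acid breakdown.

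All 4 genes span long stretches of the genome. In the GENCODE annotation of GRCm38 (mm10), Tox covers 305 kb on chromosome 4 (chr4:6686353-6991557), Tenm3 616 kb on chromosome 8 (chr8:48227682-48843951), Ngef 97.0 kb on chromosome 1 (chr1:87476834-87573870) and Wipf3 74.2 kb on chromosome 6 (chr6:54429603-54503768). The RefSeq promoter table for GRCm38.p6 was searched for the 4 rule genes and for Slc1a2 and Lgr5, and matched Tenm3, Ngef, Wipf3 and Slc1a2. The 250 bases before each RefSeq start are shown because these are the genes whose counts define or most closely follow the members. Capitals mark matches, on either strand, to a TCF/LEF motif (CTTTGA), a STAT5 motif (TTCNNNGAA), an E-box (CACGTG) or an HNF4A motif (CAAAGTCCA, which shares 5 bases with the reverse of the first).
Tenm3, chr8:48674691-48674940, minus strand: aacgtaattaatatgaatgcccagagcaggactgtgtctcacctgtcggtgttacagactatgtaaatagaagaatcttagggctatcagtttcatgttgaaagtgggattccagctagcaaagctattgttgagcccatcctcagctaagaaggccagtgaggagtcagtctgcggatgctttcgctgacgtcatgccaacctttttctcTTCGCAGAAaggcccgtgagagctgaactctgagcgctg
Ngef, chr1:87573871-87574120, minus strand: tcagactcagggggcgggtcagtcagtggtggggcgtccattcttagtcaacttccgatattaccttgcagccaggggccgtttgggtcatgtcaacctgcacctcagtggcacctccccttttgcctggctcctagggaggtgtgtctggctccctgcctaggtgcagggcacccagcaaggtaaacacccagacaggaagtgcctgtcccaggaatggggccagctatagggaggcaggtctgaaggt
Wipf3, chr6:54429436-54429685, plus strand: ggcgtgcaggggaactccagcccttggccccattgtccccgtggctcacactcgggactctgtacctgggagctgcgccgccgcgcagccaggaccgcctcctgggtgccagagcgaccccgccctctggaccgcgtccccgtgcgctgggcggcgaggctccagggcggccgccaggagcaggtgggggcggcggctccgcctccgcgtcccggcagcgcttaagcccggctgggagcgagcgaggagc
Slc1a2, chr2:102706188-102706437, plus strand: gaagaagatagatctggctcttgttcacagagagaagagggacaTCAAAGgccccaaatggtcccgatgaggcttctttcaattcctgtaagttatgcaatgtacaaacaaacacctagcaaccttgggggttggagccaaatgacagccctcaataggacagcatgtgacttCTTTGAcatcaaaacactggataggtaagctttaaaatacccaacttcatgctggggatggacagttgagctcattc
The Tenm3 window held a single STAT5 match, 39 to 31 bases before the start. The Slc1a2 window held 2 TCF/LEF matches, and the Ngef and Wipf3 windows held no match to any of the 4 motifs. Among 32817 promoter windows of this length, 13.8% held the TCF/LEF motif, 7.01% the STAT5 motif, 6.02% the E-box and 0.384% the HNF4A motif. The RefSeq starts of Tenm3 and Slc1a2 lie inside the longer GENCODE spans, so these windows belong to internal starts of those genes. The RefSeq start of Wipf3 also lies inside its GENCODE span, and its window runs across the GENCODE start.

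Among the members, Tox gave most of the counts on which the rule rests. The 444 barcodes held 1056 UMIs of Tox, a level of 1746 CPM (UMIs of the gene per 1000000 UMIs of the set; interval 1643 to 1855), and 398 of them (89.6%) held at least 1. Tenm3 stood at 916 CPM (841 to 996) and was found in 324 members. Ngef stood at 261 CPM with a UMI in 127 members, and Wipf3 at 347 CPM with a UMI in 158. Tox made up 53.4% of the UMIs of the 4 genes, Tenm3 28.0%, Wipf3 10.6% and Ngef 7.99%. These values describe the choice and are no finding. Of the members, 55 held only 1 of the 4 genes, 232 held 2, 140 held 3 and 17 held all 4.

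The number of barcodes went down at every step from 0 to 9 UMIs of the 4 genes, with no dip at the threshold, so the members are a range on that scale. The 1411 barcodes under the limits divided into 419 with 0 UMIs, 287 with 1, 261 with 2, 162 with 3, 119 with 4 and 163 with 5 or more, the highest holding 12. The 162 barcodes at 3 UMIs lie just inside the threshold and the 261 at 2 just outside. Of genes outside the rule, Slc1a2 stood at 534 CPM just inside and 436 CPM just outside, Cyp7a1 at 1403 and 1324 CPM, and Nrg4 at 92.3 and 100.7 CPM. Others lay further apart, with Glul at 219 and 116 CPM, Arrdc3 at 408 and 262 CPM, Camk1d at 1039 and 763 CPM and Hal at 58.3 and 107 CPM. With every barcode thinned to 1000 UMIs, the variance of the summed count was 1.68 times its mean. The same ratio was 1.67 for Tox, 1.25 for Tenm3, 1.12 for Wipf3 and 1.10 for Ngef. For genes of a mean count from 1 to 3, the class of the summed count (mean 1.51), the median ratio was 1.26 over 76 genes. For genes of a mean from 0.2 to 1, the class of Tox and Tenm3, it was 1.07 over 742 genes, and Slc1a2 in that class stood at 3.90. Wipf3 and Ngef lie below both classes, with means of 0.174 and 0.153.

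**Figure D1:**
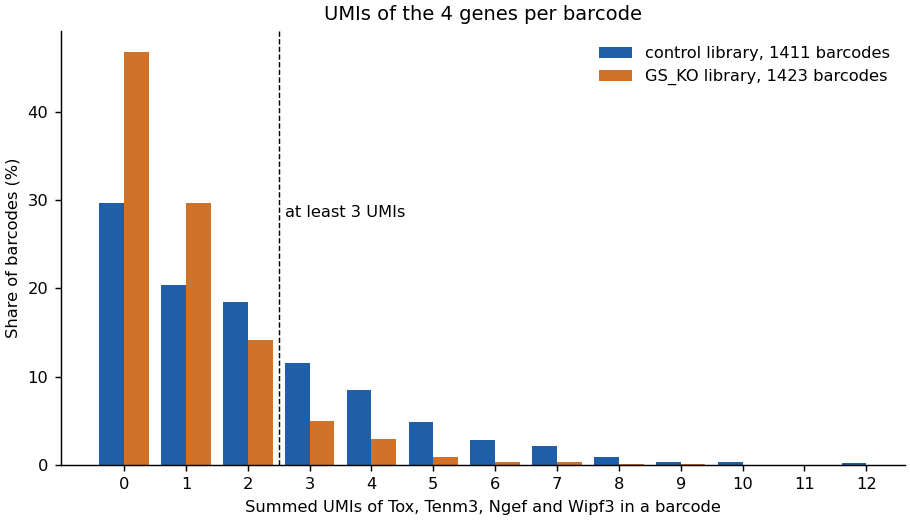
Share of barcodes (y, %) by the summed UMIs of Tox, Tenm3, Ngef and Wipf3 in a barcode (x), among barcodes of at least 1000 UMIs that met the limits of the rule, for the control library (blue, 1411 barcodes) and the GS_KO library (orange, 1423 barcodes). The dashed line marks the threshold of 3 UMIs. No gap lies beside the threshold in either library, and 31.5% of control and 9.35% of GS_KO barcodes lie to its right.

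To ask whether the 4 genes went together, each was left out in turn, barcodes were chosen on the other 3 at the same threshold, and the level of the gene left out was read in chosen barcodes and in matched barcodes with 0 UMIs of the other 3. Tenm3 stood at 656 CPM in barcodes chosen without it and at 239 CPM in their comparison (log2 ratio 1.45, interval 1.10 to 1.83). Tox stood at 1187 and 563 CPM (log2 ratio 1.07, 0.75 to 1.41). Wipf3 stood at 255 and 120.5 CPM (log2 ratio 1.07, 0.60 to 1.58). For Ngef, at 169 and 143 CPM, the interval of the log2 ratio ran from -0.25 to 0.74 and included 0. The 4 genes were put together with earlier results of these data known, so these ratios describe the list and are no independent support for it. Barcodes chosen without Tox and without Tenm3 also had lower median mitochondrial shares than their comparison (2.45% against 3.21%, and 2.54% against 3.14%), and all 4 genes are long, which moved with the ratios of other genes as given below. The part of either was not tested.

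The comparison was made over 358 matched pairs, each of 1 member and 1 comparison barcode whose total was within 5%. The rest of the 444 members found no partner and enter none of the ratios of these pairs. Over all 444 members the median total was 1277.5 UMIs. The paired members held 459373 UMIs in all with a median of 1221 per barcode, and the paired comparison barcodes 445191 with a median of 1170.5. Of 3228 genes with at least 50 UMIs over both sets, 94 (2.91%) were at least 2-fold higher in members and 101 (3.13%) at least 2-fold lower. The median log2 ratio of all genes compared was 0.16. The 13 genes of the rule were left out of these counts.

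Slc1a2 and Lgr5, known from hepatocytes beside the central vein, were among the 3 genes named first as higher in members. Slc1a2, which encodes a glutamate transporter, held 382 UMIs in members and 61 in the comparison, or 832 against 137 CPM (log2 ratio 2.59, interval 2.21 to 3.02). It was found in 94 of the 358 paired members and in 31 of their comparison barcodes, with at most 13 and 11 UMIs in 1 barcode. Lgr5, the receptor for R-spondins and a target of Wnt signalling, stood at 169.8 against 33.7 CPM (log2 ratio 2.30, 1.52 to 3.24). Rcan2, a regulator of the phosphatase calcineurin, stood at 198 against 35.9 CPM (log2 ratio 2.43, 1.69 to 3.33). Each of these genes was counted in a minority of members. At a common depth of 1000 UMIs, Slc1a2 was found in 24.9% of members, 7.26% of comparison barcodes and 4 of the 44 barcodes rich in stellate or Kupffer cell genes (median depth 1251 UMIs), Rcan2 in 15.4%, 4.19% and 1 of 44, and Lgr5 in 14.0%, 3.07% and 3 of 44. Glul, the enzyme of glutamine synthesis that marks the last cells before the vein, stood at 200.3 against 117 CPM, a log2 ratio of 0.77 (0.27 to 1.30).

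The other 12 genes named as higher have varied roles. Gna14, a G protein alpha subunit of the Gq class, had a log2 ratio of 2.19 (1.46 to 3.07) and Adgrv1, a very large adhesion receptor, 2.09 (1.46 to 2.84). Pde4b, which breaks down cyclic AMP, had 1.80, the cell cycle kinase gene Cdk6 1.73, the alpha-arrestin gene Arrdc3 1.69 and Stau2, which encodes a protein that binds double-stranded RNA, 1.47. Rmdn2, which encodes a protein linked to microtubules, had 1.40, the splicing regulator gene Celf2 1.34, the complement gene C6 1.32, the syntrophin gene Sntb1 1.14, the mitochondrial carrier gene Slc25a21 1.08 and the oxidoreductase gene Wwox 1.03. In abundance, Wwox (1254 against 615 CPM) and Slc25a21 (1125 against 530.1 CPM) stood highest among these 12 genes. At 1000 UMIs, C6 was found in 41.1% of members and 20.1% of comparison barcodes. It was also found in 20 of the 44 barcodes rich in stellate or Kupffer cell genes. Celf2 was in 37.4%, 17.3% and 9 of 44, Adgrv1 in 13.4%, 5.59% and 4, and Gna14 in 15.4%, 3.91% and 3. Cyp7a1, whose enzyme starts the classic route from cholesterol to bile acids, was higher by less, at 1448 against 941 CPM (log2 ratio 0.62, 0.44 to 0.80).

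Among genes lower in members, Gldc, the glycine decarboxylase of the glycine cleavage system, held 7 UMIs in members and 46 in the comparison (15.2 against 103 CPM, log2 ratio -2.68, interval -4.15 to -1.60). Nrg4, a secreted ligand of the epidermal growth factor receptor family, stood at 58.8 against 220.1 CPM (log2 ratio -1.89, -2.58 to -1.28). It was found in 24 members and in 72 comparison barcodes. Hsd17b13, a lipid droplet enzyme of periportal hepatocytes, stood at 45.7 against 130.3 CPM (log2 ratio -1.49, -2.31 to -0.77). Sfr1, Grcc10, Inmt, Cyb5r3 and Gstm1 had log2 ratios from -1.90 to -1.10. Gpx1, the glutathione peroxidase of the cytosol, stood at 1681 against 3098 CPM (log2 ratio -0.88). Each of Sfr1, Grcc10, Inmt, Cyb5r3, Gstm1 and Gpx1 stood higher in the library's barcodes of 200 to under 400 UMIs, which are too small for most cells, than in members or the comparison, from 137 CPM for Sfr1 to 5084 CPM for Gpx1. Camk1d (log2 ratio -0.97) and Cdk8 (-0.98) completed the list, with 1 comparison barcode holding 94 of the 472 UMIs of Cdk8.

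Immunoglobulin genes filled the remaining 4 places among the lower genes and rested on single barcodes. All 59 UMIs of Ighg1 and all 57 of Ighv9-1 came from 1 comparison barcode each, and 353 of the 355 UMIs of Igkv14-111 from 1. Members held 0 UMIs of these 3 genes. Igkv1-110 held 582 UMIs in 1 comparison barcode and 108 in 1 member. Of the paired barcodes, 3 in the comparison and 1 member held at least 3 immunoglobulin UMIs.

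**Figure D2:**
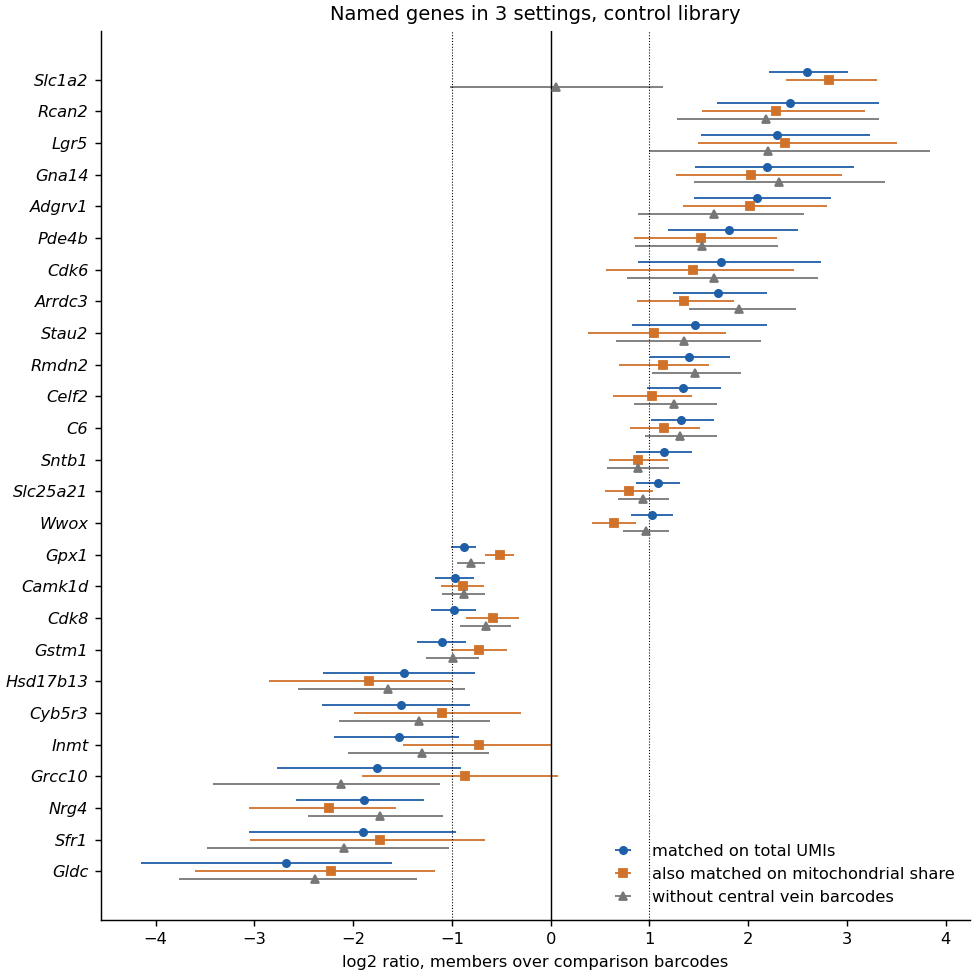
Log2 ratio of members over comparison barcodes (x) for the 15 genes named as higher and the 11 named as lower that are not immunoglobulin genes (y), with exact 95% counting intervals. Blue points are barcodes matched on total UMIs, orange points also matched on mitochondrial share, and grey points leave out barcodes with 2 or more UMIs of Slc1a2, Lgr5 and Glul. Dotted lines mark 2-fold, and Slc1a2 falls from 2.59 to 0.05 in the last setting, which removes barcodes by Slc1a2 and Lgr5 themselves.

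Levels of these genes were also read over all 1411 barcodes by their count of the 4 rule genes. Slc1a2 stood at 128 CPM in barcodes with 0 UMIs of the 4 genes, 197 with 1, 436 with 2, 534 with 3, 962 with 4 and 802 with 5 or more. Nrg4 stood at 215, 180.0, 100.7, 92.3, 75.9 and 54.0 CPM over the same bins. Cyp2f2, a cytochrome P450 of periportal hepatocytes, went from 610.4 CPM at 0 UMIs to 262 at 5 or more, and Cps1, the first enzyme of the urea cycle, was 8438 and 8356 CPM in those bins. The change in Slc1a2 was spread over the whole range, whereas Cyp2f2 differed most between the bins of 0 and 1 UMI. The median total went from 1145 UMIs in the lowest bin to 1368 in the highest and the median mitochondrial share went from 4.05% to 2.35%, and their part in these levels was not tested.

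**Figure D3:**
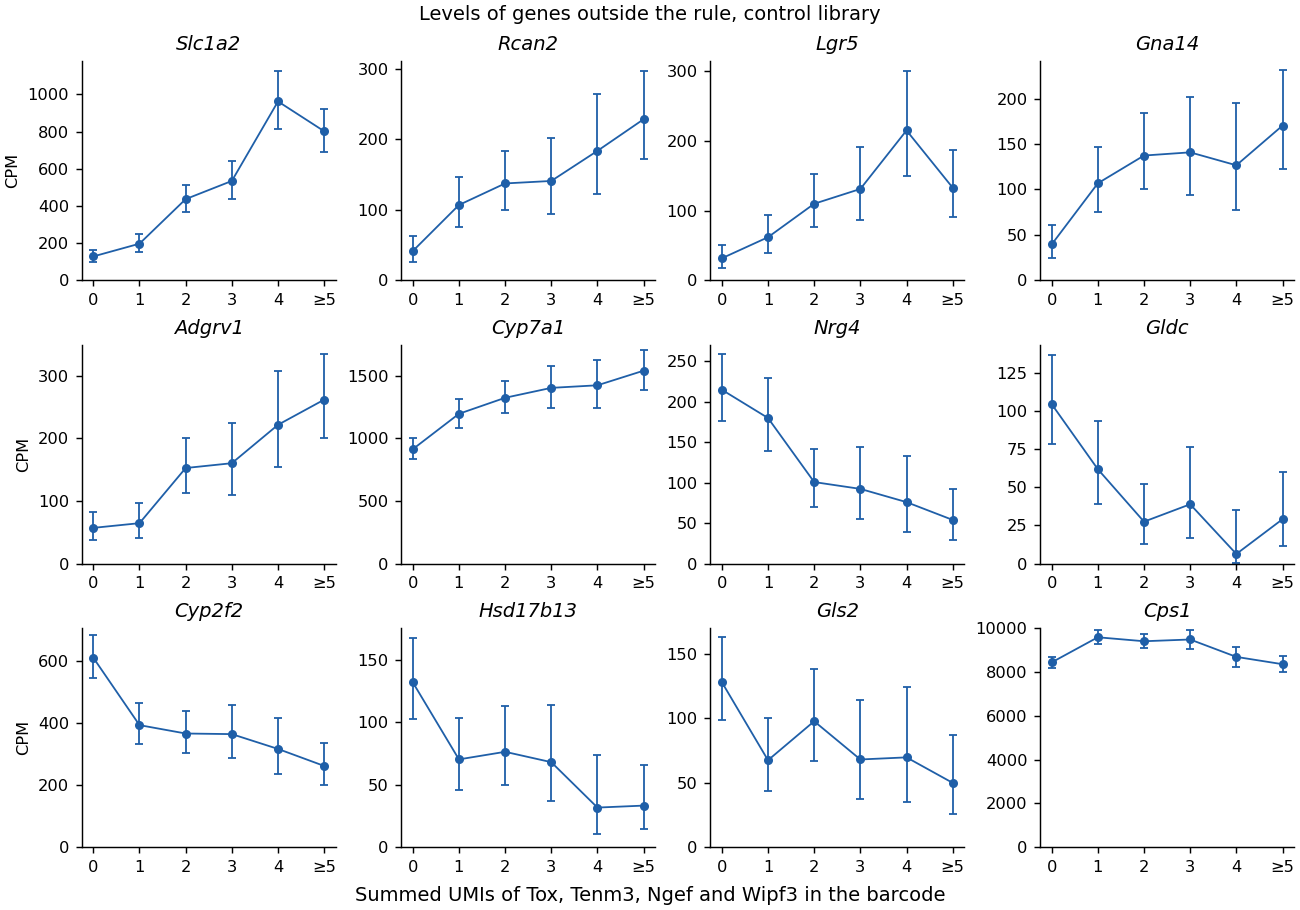
Level in CPM (y, from 0) of 12 genes outside the rule in control barcodes with 0, 1, 2, 3, 4 and 5 or more summed UMIs of Tox, Tenm3, Ngef and Wipf3 (x, 419, 287, 261, 162, 119 and 163 barcodes); bars are exact 95% Poisson intervals. Slc1a2, Rcan2, Lgr5, Gna14 and Adgrv1 stand higher in the upper bins and Nrg4, Gldc, Cyp2f2 and Hsd17b13 lower, while Cps1 stays between 8356 and 9586 CPM.

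The genes that went with each rule gene differed. When barcodes with any UMI of Tox were set against matched barcodes without it (675 pairs), the log2 ratio of Slc1a2 was 2.26 (1.98 to 2.56), that of Rcan2 1.81 and that of Lgr5 1.75. With Tenm3 (502 pairs) the same ratios were 0.92, 0.72 and 0.72. With Wipf3 (269 pairs) that of Slc1a2 was 0.08 (-0.26 to 0.41), and with Ngef (241 pairs) it was -0.70 (-1.09 to -0.32). Gldc was lower with Tox (-2.31, -3.22 to -1.55), and its interval reached 0 for each of the other 3. Nrg4 was lower with Tox (-1.62, -2.08 to -1.20) and with Tenm3 (-0.78, -1.24 to -0.33). When Tox was left out of the rule, 147 barcodes remained and the log2 ratio of Slc1a2 was 0.98. That of Lgr5 was 1.74, that of Nrg4 -1.59 and that of Gldc 0.12. Lgr5 held too few UMIs there to be compared, and Slc1a2 was the highest of the 10 pericentral genes compared, of which 5 were above 0. Gldc was rare, with 53 UMIs in all 419 barcodes with 0 UMIs of the 4 genes. Its ratio of 0.12 thus rests on few counts.

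Zonation lists were read as wholes beside the median of 0.16 over all genes. Of 21 periportal genes, 15 passed the count minimum. Of these, 14 were below 0, with a median log2 ratio of -0.68, and 4 of them were at least 2-fold lower. They were Hsd17b13, Etnppl (-1.23), which acts on phosphoethanolamine, the glutaminase gene Gls2 (-1.11) and the histidine ammonia lyase gene Hal (-1.03). The urea cycle gene Ass1 stood at 1829 against 2925 CPM (log2 ratio -0.68, -0.80 to -0.55), Arg1 at 960.0 against 1413 CPM (-0.56) and Asl at 270 against 485 CPM (-0.84). Cps1 differed least, at 8462 against 8608 CPM, with an interval from -0.09 to 0.04, and G6pc, the last step of glucose release, was the exception at 688 against 535 CPM (log2 ratio 0.36). Of 19 pericentral genes, 14 passed the minimum, 10 of them above 0 and 4 below with a median of 0.22, and Slc1a2 and Lgr5 were past 2-fold. The 4 pericentral genes below 0 all encode enzymes, as does Glul, which was above 0. Cyp2e1 stood at 5329 against 6283 CPM (log2 ratio -0.24, -0.32 to -0.16), the ornithine aminotransferase gene Oat at 231 against 330.2 CPM (-0.52), the cytochrome P450 gene Cyp2a5 at 577 against 777 CPM (-0.43) and Rgn, which encodes a lactone hydrolase, at 784 against 1256 CPM (-0.68). Without any limit on the second list, which holds the periportal gene Sds, the periportal median was -0.67 and the pericentral 0.39. For the rule without Tox, the periportal median was -0.37 over 11 genes and the pericentral -0.13 over 10. With at least 5 UMIs of the 4 genes they were -0.53 over 11 and -0.01 over 10, and 5 of those 10 were above 0. At a minimum of 1500 UMIs they were -0.46 over 9 and 0.01 over 5. In these 3 settings the median of all genes was 0.10, 0.14 and 0.08.

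The counts of Slc1a2, Lgr5 and Glul fell in a part of the members. A total of 93 of 358 paired members (26.0%) and 18 paired comparison barcodes (5.03%) held at least 2 UMIs over these 3 genes, which restates their higher levels per barcode. After these barcodes were left out and the rest matched again, 11 of the 15 higher genes had a ratio of at least 2-fold. That count includes Lgr5, and among the others were Rcan2 (2.18), Gna14 (2.31) and Arrdc3 (1.91). Of the 15 genes, 13 reached 50 UMIs. Slc1a2 and Lgr5 had themselves been used to remove barcodes, and their ratios of 0.05 and 2.20 in what was left are no sign of stability. Lgr5 there held 30 UMIs in members, too few to be compared. The periportal median was then -0.61 over 14 genes, and the pericentral median 0.01 over 11.

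**Figure D4:**
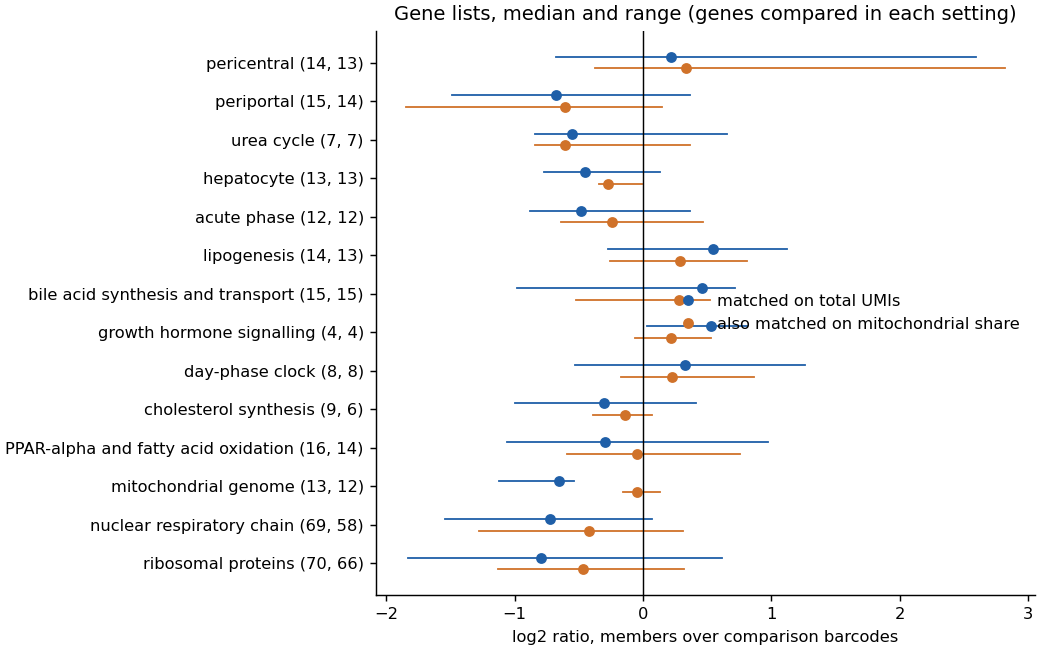
Log2 ratio of members over comparison barcodes (x) for 14 gene lists (y, with the number of genes compared in each setting). Points are medians over the genes of a list and lines run from its lowest to its highest gene, in blue for barcodes matched on total UMIs and in orange for those also matched on mitochondrial share. The periportal median is -0.68 and -0.61, the ribosomal protein median -0.79 and -0.47.

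Members held a lower share of mitochondrial RNA than the comparison. The median share of mitochondrial UMIs was 2.57% over all members and 4.05% over the comparison barcodes, and Malat1, a nuclear long noncoding RNA, took a median of 2.01% and 1.58%. Over the pairs the log2 ratio of Malat1 was 0.31 (0.27 to 0.35), the highest of the 3 nuclear long noncoding RNAs compared. Neat1 stood at 0.19, the median of the 3 and close to that of all genes, and Kcnq1ot1 at -0.05. All 13 mitochondrial genes compared were lower, with a median log2 ratio of -0.66, as were 66 of 69 nuclear genes of the respiratory chain (median -0.73) and 69 of 70 ribosomal protein genes (median -0.79). The log2 ratio also went with the span of a gene. Its median was -0.61 over 502 genes of up to 10 kb, -0.17 from 10 to 30 kb, 0.26 from 30 to 100 kb, 0.46 from 100 to 300 kb and 0.50 over 161 genes above 300 kb. Of the 15 genes named as higher, Arrdc3 has the shortest span at 12.7 kb, and the next, Rmdn2, covers 81.3 kb. The part of RNA content and gene span in the differences above was not tested gene by gene, and a matched comparison was made instead.

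When pairs also had to match in mitochondrial share, 277 pairs remained, with median shares of 3.02% and 3.04%. Of 2641 genes compared, 28 (1.06%) were then at least 2-fold higher and 31 (1.17%) at least 2-fold lower, and the median of all genes was 0.04. All 15 higher genes kept a ratio above 0, 12 of them past 2-fold, and Slc1a2 stood at 2.82 (2.38 to 3.31). All 11 lower genes other than immunoglobulins kept a ratio below 0, 5 of them past 2-fold, with Nrg4 at -2.25, Gldc at -2.22 and Hsd17b13 at -1.84. Of 14 periportal genes, 13 were lower (median -0.61), and of 13 pericentral genes 10 were higher (median 0.34), with Glul at 1.01. With a match on Malat1 share in its place, 274 pairs gave 25 genes higher and 20 lower, and the periportal median was -0.63. The slope with gene span was smaller but remained, from -0.31 up to 10 kb to 0.21 above 300 kb in pairs matched on mitochondrial share.

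**Figure D5:**
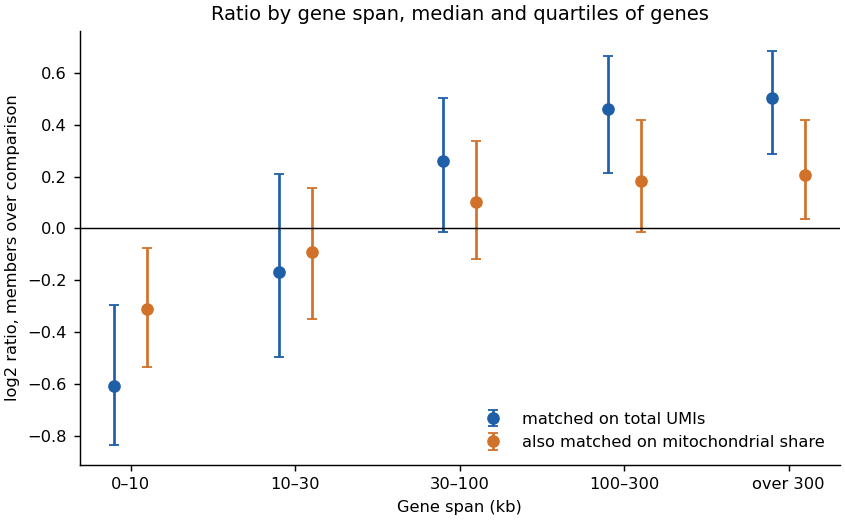
Median log2 ratio of members over comparison barcodes (y) for genes grouped by span in the annotation (x, kb), with bars from the lower to the upper quartile of genes. Blue points are pairs matched on total UMIs (502, 693, 1191, 680 and 161 genes from left to right), orange points pairs also matched on mitochondrial share. Longer genes stand higher in members, from -0.61 to 0.50 in the first setting and from -0.31 to 0.21 in the second.

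The relatives and partners of the 4 genes were mostly too rare to compare. Tox2 and Tox3 had 0 UMIs in both matched sets and Tox4 10 and 5. Tenm1 had 0 UMIs and Tenm2 and Tenm4 had 3 or fewer in both sets together. Of 9 teneurins and partners listed, Adgrl2, a latrophilin, was the single gene with enough UMIs and stood at 503 against 292 CPM (log2 ratio 0.78, 0.47 to 1.10). Of 24 ephexins, Eph receptors and ephrins, 2 were compared. Efna5, an ephrin, stood at 168 against 87.6 CPM (log2 ratio 0.93, 0.36 to 1.53) and the exchange factor gene Arhgef26 at 845 against 586 CPM (0.53). Epha4, a receptor that acts through ephexin-1, had 1 UMI in members and 0 in the comparison. Among 13 genes of the WIP family, N-WASP and the Arp2/3 complex, 4 were compared and their median was -0.01, with Wasl, which encodes N-WASP, at 209 against 175 CPM and an interval from -0.19 to 0.70.

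Genes of growth hormone signalling and of sex-biased expression were read because Tox belongs to the growth hormone response of mouse liver. Ghr, the receptor itself, stood at 4500 against 2900 CPM (log2 ratio 0.63, 0.53 to 0.74), the prolactin receptor gene Prlr at 1559 against 1157 CPM (0.43), Stat5b at 111 against 62.9 CPM (0.81) and Igf1 at 2464 against 2408 CPM (0.03). Of these 4, all were above 0, and in pairs matched on mitochondrial share 3 were, with Ghr at 0.31. Trim24 and Cux2, which like Tox encode female-predominant factors, stood at 420.1 against 207 CPM (1.02, 0.66 to 1.40) and 287 against 189 CPM (0.60, 0.20 to 1.02). Of the female-biased list 4 genes were compared, 3 of them above 0, and of the male-biased list 6, of which 5 were above 0, beside 1946 of all 3228 genes above 0. Cyp7b1 led the latter in abundance at 4103 against 2628 CPM (0.64), and Hsd3b5 was past 2-fold at 82.7 against 40.4 CPM (1.01, 0.19 to 1.93). In pairs matched on mitochondrial share Trim24 stood at 0.91 and Cux2 at 0.37, and no gene compared from either list was past 2-fold higher, while 1 of the female-biased list, Ntrk2, stood at -1.06. Hsd3b5 held too few UMIs to be compared there. In pairs matched on Malat1 share 2 female-biased genes were above 0 and 2 below.

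Of 14 lipogenesis genes compared, 13 were above 0 with a median of 0.55. Elovl6, a fatty acid elongase, was past 2-fold (250.3 against 115 CPM, log2 ratio 1.12, 0.64 to 1.63), Fasn, the fatty acid synthase, stood at 316 against 171 CPM (0.88) and Mlxipl, the carbohydrate response factor, at 555 against 303 CPM (0.87). The median was 0.29 in pairs matched on mitochondrial share, where 11 of 13 were above 0 and Elovl6 stood at 0.81. Of 15 bile acid genes 9 were above 0, a share like that of all genes, with a median of 0.46 (0.28 in the pairs matched on mitochondrial share) and none past 2-fold. Cyp27a1 stood at 829 against 505 CPM (0.71), the canalicular transporter gene Abcc2 at 2382 against 1563 CPM (0.61) and the bile acid receptor gene Nr1h4 at 1424 against 957 CPM (0.57). Of 10 glucose genes 8 were above 0, with a median of 0.32 (0.14 in the matched pairs). Pklr, the liver pyruvate kinase, stood at 192 against 85.4 CPM (1.16, 0.60 to 1.75), and at 0.77, under 2-fold, in the matched pairs. Of 8 day-phase clock genes 6 were above 0, and the clock output factor gene Hlf stood at 233 against 96.6 CPM (1.26, 0.75 to 1.82), and at 0.87 in the matched pairs. Of all 3228 genes compared, 1946 were above 0. With a match on Malat1 share, 3 of 8 day-phase clock and 5 of 10 glucose genes were above 0, beside 1390 of all 2621 genes. Their medians were -0.05 and 0.14. In the same pairs 11 of 13 lipogenesis and 12 of 15 bile acid genes were above 0, with medians of 0.33 and 0.19.

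Markers bore on the label of hepatocytes in part only. All 13 hepatocyte markers were detected, and every member held Alb, at 18463 CPM. This marker alone does not separate cells from free RNA, because Alb stood at 41519 CPM in the 116552 barcodes of 200 to under 400 UMIs. Malat1, at 21349 CPM in members and 1709 CPM in those small barcodes, did differ. Tox stood at 13.7 CPM, Tenm3 at 24.0, Ngef at 12.2 and Wipf3 at 12.1 in the small barcodes, all far below the members and also below the 785, 426, 156 and 185 CPM of all 1411 barcodes under the limits. The 13 hepatocyte markers summed to 64270 CPM in paired members and 86776 CPM in the comparison. Of markers of other cell types, paired members held 0 UMIs over the cholangiocyte, NK cell and neutrophil lists, and 1 UMI over 10 T cell markers. The B and plasma cell list had the most, with 64 UMIs (139 CPM) in members and 82 (184 CPM) in the comparison, and Cd79a, Cd79b, Ms4a1 and Ighm at 0 in each. Endothelial markers summed to 78.4 against 162 CPM, stellate markers to 69.7 against 171 CPM and Kupffer markers to 43.5 against 49.4 CPM, and their part in the results was not tested. The stellate and Kupffer lists include Reln, Dcn, Clec4f, Cd5l and C1qa, which the rule limited in both sets. Their low sums are thus partly set by the choice. The T cell genes Cd3d, Cd3g, Cd4, Cd8a, Trac and Trbc2 were at 0 in members. In the 228 barcodes with 2 or more UMIs of Ncam2, Sult5a1, Sds and Cryl1, Tox stood at 174 CPM and Tenm3 at 93.7 CPM. In 44 barcodes with 3 or more UMIs of Reln, Dcn, Clec4f, Cd5l and C1qa, Tox stood at 377 CPM. All 44 also held Alb, at 19936 CPM, and Malat1 stood at 15976 CPM there. Neither Alb nor Malat1 thus separates the members from barcodes rich in stellate or Kupffer cell genes.

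The whole series bears on the members in few ways. Of the control barcodes 1703 held at least 1000 UMIs, and 1834 of the GS_KO library, beside a stated aim of at least 10000 cells. The libraries summed to 61635695 and 57973740 UMIs and shared 8108 barcodes, of which 1 held at least 1000 UMIs in each and none was a member. Members held a median of 1277.5 UMIs and at most 3330, with 26 above 2000. No doublet caller was run.

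The choice was repeated outside the members, with a lower threshold in smaller barcodes. Control barcodes of 500 to under 1000 UMIs were taken at 2 or more UMIs of the 4 genes, under the same other limits. Their 774 pairs gave 836 of 3772 genes (22.2%) at least 2-fold higher and 209 (5.54%) at least 2-fold lower. Median mitochondrial shares there were 4.13% and 7.41%. All 3 nuclear long noncoding RNAs compared were past 2-fold higher there, with a median log2 ratio of 1.33, beside 0.19 in the main pairs. The part of this difference in RNA content was not tested. All 15 higher genes were past 2-fold in these smaller barcodes, with Slc1a2 at 2.65, and all 11 lower genes kept a ratio below 0, with 2 of them past 2-fold. In the GS_KO library 133 of 1423 barcodes (9.35%, 7.88 to 11.0%) met the rule. Tox stood at 80.4 CPM over those 1423 barcodes and Wipf3 at 66.0, while Tenm3 stood at 412 and Ngef at 154. Chosen barcodes there thus rested on Tenm3, which was found in 123 of the 133. In 112 pairs, 13 of 1230 genes (1.06%) were at least 2-fold higher and 15 (1.22%) at least 2-fold lower. Of the 15 higher genes 14 had a ratio above 0, with 4 past 2-fold, but 8 intervals alone lay wholly above 0. Rcan2 (2.05) and Slc1a2 (1.92, 0.84 to 3.31) held fewer than 50 UMIs over both sets there. Stau2 stood at -0.02. Of the 11 lower genes 10 had a ratio below 0, with 1 past 2-fold and 3 intervals wholly below 0. Genotype, animal and library cannot be told apart between the libraries.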

How the data were processed

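Libraries of mouse liver were analysed from the deposited matrices, whose values are raw UMI counts per gene and barcode made by the authors. The labels name both single-cell and single-nucleus preparation, so whether a barcode holds a cell or a nucleus is not settled here. Per the file headers the software was Cell Ranger 8.0.0, and per the submitters' processing notes the build was mm10. The sources used here do not give whether intronic reads were counted. UMIs were summed over the barcodes of a set and divided by the set's total (CPM). Log2 ratios had 0.5 UMIs added to each sum. Intervals are exact 95% Poisson (levels), Clopper-Pearson binomial (shares) and conditional binomial (ratios), and cover counting error only. Pairs were matched 1 to 1 within 5% of total UMIs, and where stated within 0.5 percentage points of mitochondrial share or 0.3 of Malat1 share.

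Called genes had at least 50 UMIs over both sets and a 2-fold difference. Named genes were the 15 with the highest and the 15 with the lowest ratio by the interval bound nearest to 1, among 3075 genes of at least 50 CPM in a set, leaving out the rule's, mitochondrial, ribosomal and clone-named genes, plus Malat1, Cyp7a1, Glul, Cux2 and Trim24 and examples from each list. Members and lists were chosen with earlier results of these data known, and the central vein and immunoglobulin settings were added after the data were seen. Counts were simulated for 3092 genes of these matched sets, with 200 genes changed by a log2 ratio of 1.5. The intervals there covered 96.2% of true ratios, and 94.5% of the changed genes passed 2-fold. The intervals treat UMIs as independent counts. They may be too narrow for genes whose UMIs gather in few barcodes. Slc1a2 is such a gene, with a variance 3.90 times its mean in thinned control barcodes. Coverage for such genes was not read separately. Spans come from GENCODE vM21 by gene ID, promoter sequences from RefSeq. Python 3.11.15, numpy 2.4.6, scipy 1.17.1 and pandas 2.3.3 were used.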

Additional observations from a re-analysis of the deposited data

How the results depend on the processing

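Counts of genes at least 2-fold higher and lower moved with the settings, the cause not being tested except where fewer barcodes or genes entered. The genes compared also differed between settings, so shares are given beside the counts. The main setting gave 94 and 101 of 3228 genes (2.91% and 3.13%). At a minimum of 1500 UMIs the counts were 13 and 5 of 470 (2.77% and 1.06%). In barcodes of 500 to under 1000 UMIs they were 836 and 209 of 3772 (22.2% and 5.54%). Those barcodes were chosen at 2 or more UMIs of the 4 genes. With at least 5 UMIs of the 4 genes the counts were 58 and 46 of 1593 (3.64% and 2.89%). With 0 or 1 UMI allowed in the comparison they were 29 and 41 of 3796 (0.764% and 1.08%). Pairs matched on mitochondrial share gave 28 and 31 of 2641 (1.06% and 1.17%). Pairs matched on Malat1 share gave 25 and 20 of 2621 (0.954% and 0.763%). The rule without Tox gave 19 and 18 of 1597 (1.19% and 1.13%), and without Tenm3 36 and 32 of 2791 (1.29% and 1.15%). The GS_KO library gave 13 and 15 of 1230 (1.06% and 1.22%). With a minimum of 20 UMIs per gene the counts were 242 and 262 of 5683 (4.26% and 4.61%). With 100 they were 42 and 39 of 1706 (2.46% and 2.29%). The count of lower genes alone moved to 59 with no limit on the second list, 57 with a limit of 0 on the other lists, 64 for the rule without Wipf3, and 58 without central vein barcodes. Of 663 log2 ratios of named genes under the alternatives, 517 stayed within the counting error, 141 moved and 5 changed sign. That total pools unlike settings. With at most 2000 UMIs, which kept most of the same barcodes, 35 stayed, and with no matching 34 stayed and 1 moved. In the GS_KO library 5 stayed, 22 moved and 3 changed sign. For the rule without Tox 12 stayed, 19 moved and 1 changed sign. At a minimum of 1500 UMIs 14 stayed and 17 moved. Those that changed sign in the GS_KO library were Stau2 (-0.016), Grcc10 (0.19) and Trim24 (-0.33). The others were Gldc (0.12, on few counts) for the rule without Tox, and Igkv1-110 (7.71) with pairs matched on Malat1 share. Those pairs kept the single member that holds Igkv1-110. The difference in mitochondrial share was -1.28 points and became 0.12 at a minimum of 1500 UMIs, with 41 pairs. No paired analysis was possible because each group holds 1 library, so no test was run, and no library could be left out. The depth, a median of 1221 and 1170.5 UMIs per barcode, limits the comparison to 3228 of 32285 genes.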

Other observations

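Of 12 acute phase genes compared, 9 were below 0 with a median log2 ratio of -0.48, and none was past 2-fold. Orm1, an orosomucoid, stood at 246 against 454 CPM (-0.88, interval -1.23 to -0.54). Hp, haptoglobin, stood at 714 against 1166 CPM (-0.71) and Hpx, the heme carrier hemopexin, at 809.8 against 1188 CPM (-0.55). Of 13 hepatocyte markers 12 were below 0 and none was past 2-fold, with Apoa1 at 2969 against 4737 CPM (-0.67) and the exception Tat at 1663 against 1514 CPM (0.14, interval -0.02 to 0.29). In pairs matched on mitochondrial share the medians were -0.24 and -0.27. Ppara, the nuclear receptor of the fasting response, was higher at 1099 against 573 CPM (0.94, 0.72 to 1.16) and stood at 0.76 in pairs matched on mitochondrial share, although 11 of the 16 genes of its list were below 0. Of 9 cholesterol synthesis genes 7 were below 0, with a median of -0.30, and none was past 2-fold.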
